A study of Homo sapiens with 4 samples.

Results

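H3K4bhb peaks inside the longest human genes were described in HK-2 cells, an established line of human renal tubular epithelium. H3K4bhb is histone H3 carrying beta-hydroxybutyrate on lysine 4. A peak was taken as a member when its summit lay inside a RefSeq protein-coding gene on chromosomes 1 to 22 whose span was 1 Mb or more on the human build GRCh38. The rule used gene spans and summit positions, and no peak height. It found 66 genes among 19126 autosomal protein-coding genes, and 702 peaks among the 17761 of the series. Of these, 263 came from cells exposed to hydrogen peroxide (H2O2), out of 6251 peaks (the peroxide list), and 439 from cells pretreated with sodium beta-hydroxybutyrate (BHBNa) and then exposed to H2O2, out of 11510 (the BHBNa list). The sources used here give no dose or time for either agent. Behind each list stood 1 immunoprecipitated (IP) library and 1 control, called IgG in its title and input in its library name, so no difference between the lists has a replicate check. Values therefore describe these libraries, and intervals cover counting error only. All the groups were H2O2-exposed cells of a single line, and peaks of a histone mark offer no direct check of that line's identity.

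Beta-hydroxybutyrate is a ketone body made in the liver during fasting, and it can be attached to lysines of histones. Marks on lysine 4 of histone H3 are best known from promoters and enhancers. Genes of extreme span consist almost entirely of introns, have few neighbours, tend to replicate late, and many encode adhesion molecules, receptors and scaffolds of neurons. Several overlap common fragile sites, stretches where chromosomes tend to break when replication is slowed. In a kidney tubule line most neuronal genes of this kind would ordinarily be silent or low.

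No genome sequence was used here, but promoter windows from RefSeq (GRCh38, 250 bases before to 50 after a start) lay under 2 of the member peaks, and these are shown because no other member touched a promoter window of any gene. Both windows belonged to noncoding RNAs inside a long gene. The first peak lay in NRXN3 in the BHBNa list (365 bp, chromosome 14, 79075483 to 79075847), where the window of the antisense RNA NRXN3-AS1 covered 293 of its bases. The second lay in PTPRT in the peroxide list (264 bp, chromosome 20, 42630666 to 42630929), where 2 windows of the RNA LOC105372624 covered it whole. Capitals mark the 21 bases centred on the summit.
NRXN3, chr14:79075483-79075775, minus strand: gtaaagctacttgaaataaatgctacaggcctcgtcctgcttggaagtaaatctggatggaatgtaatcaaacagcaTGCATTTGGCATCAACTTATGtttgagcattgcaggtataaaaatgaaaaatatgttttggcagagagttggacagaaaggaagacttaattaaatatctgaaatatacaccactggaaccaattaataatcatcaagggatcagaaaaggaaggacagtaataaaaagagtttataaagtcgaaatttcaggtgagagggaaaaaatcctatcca
PTPRT, chr20:42630666-42630929, plus strand: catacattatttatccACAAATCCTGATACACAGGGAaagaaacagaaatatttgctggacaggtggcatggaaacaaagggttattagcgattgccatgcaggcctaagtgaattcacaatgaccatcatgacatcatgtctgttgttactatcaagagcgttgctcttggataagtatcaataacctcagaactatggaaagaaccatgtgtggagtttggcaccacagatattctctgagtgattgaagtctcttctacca
The printed stretches were AT-rich, at 34.8% and 40.2% G or C, and each held 2 CG dinucleotides. Of all 35116 promoter windows in the table, 4.3% had a G or C content as low as that of the NRXN3-AS1 window or lower, and 18.2% held 2 or fewer CG. The summits lay 163 and 151 bp from the nearest start. The NRXN3 peak was weak, with a fold enrichment of 2.64 (q = 0.326) from 2 IP fragments, and so was the PTPRT peak, with a fold of 3.01 (q = 0.494) from 3 fragments. Of the long genes, 54 had a promoter window of their own in the table, and no peak of either list overlapped one. These windows are so short that hardly any peak would fall in them at the density of long genes. The lack of overlap therefore does not show that promoters were avoided.

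Fold enrichment is the authors' ratio of IP signal at the summit over local background, and q is their p-value adjusted for multiple testing. How many IP fragments each summit held was recovered from the fold and the p. A member peak rested on a median of 4 fragments under peroxide, with quartiles of 4 and 5, and of 3 in the BHBNa list, with quartiles of 2 and 3. Every peroxide peak had 3 or more fragments, whereas 217 of the 439 members of the BHBNa list (49.4%) rested on 2. The genome-wide background, the lowest that any peak was set against, was 0.274 fragments in the peroxide list and 0.102 in the BHBNa list. All peaks had a −log10 p of 3 or more. At that limit 2 fragments could pass over a background of 0.102 but not over 0.274. The absence of 2-fragment peaks from the peroxide list was thus fixed by the limit. A cut at 3 or more fragments is therefore not alike in the 2 lists.

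Genes of 1 Mb or more carried peaks at a higher density than the rest of the autosomes in both lists. They made up 3.17% of autosomal sequence, measured from the lowest to the highest annotated gene position of each chromosome. They held 4.47% of autosomal peaks in the peroxide list (95% Wilson interval 3.97 to 5.03) and 4.08% in the BHBNa list (3.72 to 4.47). The peroxide list had 2.89 summits per Mb in long genes (exact Poisson interval 2.55 to 3.26) and 2.02 per Mb elsewhere, a ratio of 1.43 (exact binomial interval 1.26 to 1.62). The BHBNa list had 4.83 per Mb (4.39 to 5.3) and 3.71 elsewhere, a ratio of 1.3 (1.18 to 1.43). Among the 18 chromosomes that carry a long gene, density was higher in long genes than elsewhere on 12 in the peroxide list and on 13 in the BHBNa list. Assembly gaps, where no peak can be called, were not taken out of the sequence elsewhere. The share of 3.17% and the densities elsewhere may therefore be too low, and the ratios to them too high. The size of this effect was not measured.

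Peak density increased stepwise with gene span in both lists. In the peroxide list it was 1.13 per Mb in genes under 100 kb, 1.88 in genes of 100 to 300 kb, 2.42 in genes of 300 kb to 1 Mb and 2.89 in the longest. In the BHBNa list the same classes had 3.15, 3.89, 4.12 and 4.83 per Mb. The longest class stood above the next one by a ratio of 1.19 (1.04 to 1.38) and 1.17 (1.05 to 1.3). Against their own neighbourhood the contrast was smaller. The 1 Mb on each side of the long genes had 2.52 and 4.0 summits per Mb, giving ratios of 1.15 (0.971 to 1.36) and 1.21 (1.06 to 1.38). Intergenic sequence within these flanks had 2.9 per Mb in the peroxide list and 4.43 in the BHBNa list, and its intervals (2.55 to 3.29 and 4.0 to 4.9) overlapped those of the long genes. Other protein-coding genes in the flanks had 1.7 and 3.07 per Mb. Over all peaks, the long genes thus had about the density of the intergenic sequence beside them, and more than the shorter genes beside them. At 3 or more fragments the BHBNa list had 2.44 per Mb (2.13 to 2.78) in long genes and 1.98 (1.69 to 2.3) in the intergenic flanks. At a q of 0.05 or less the values were 0.209 and 0.153 in the peroxide list and 0.803 and 0.694 in the BHBNa list, with overlapping intervals.

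**Figure D1:**
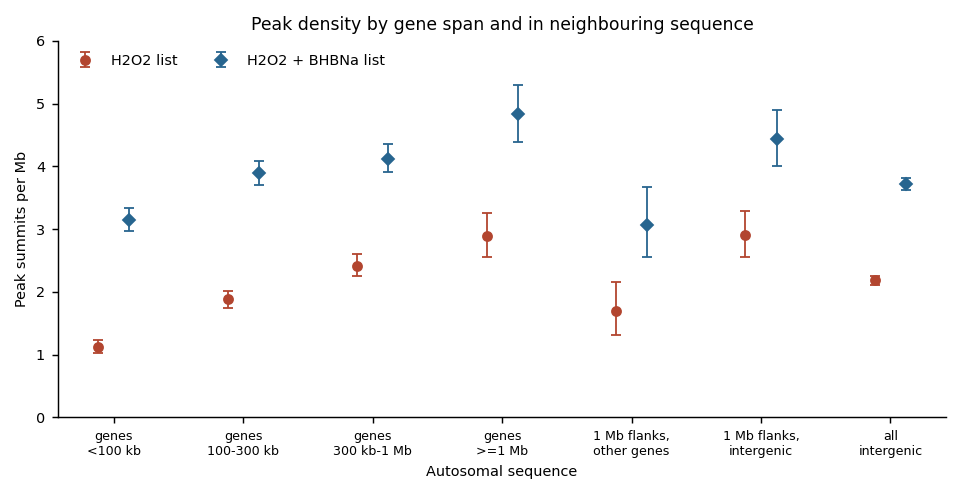
Peak summits per Mb (vertical axis) in autosomal genes grouped by span, in the 1 Mb flanks of the longest genes split into other genes and intergenic sequence, and in all intergenic sequence, for the peroxide list (H2O2, circles) and the BHBNa list (H2O2 + BHBNa, diamonds); bars are exact 95% Poisson intervals. Density steps up with gene span in both lists, to 2.89 and 4.83 per Mb, and the intergenic flanks lie at 2.9 and 4.43. Assembly gaps were not taken out of intergenic sequence.

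Nearly every long gene held a peak. In the peroxide list 61 of 66 did (92.4%), where 7.88% of all autosomal protein-coding genes did, and in the BHBNa list 65 of 66 did (98.5%), against 15.1% of all. Both lists had a peak in 60 of the 66 (90.9%), against 4.32% of all genes. Such shares increase with gene span: 59.3% and 80.7% of genes of 300 kb to 1 Mb held a peak. At a q of 0.05 or less, 17 long genes were hit in the peroxide list and 44 in the BHBNa list, where 0.748% and 3.11% of all genes were. No long gene was without a peak in both lists. Those with 0 in the peroxide list were CSMD1, ROBO1, RANBP2, PARD3B and PTPRN2, and the one with 0 in the BHBNa list was NCKAP5.

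A long gene held 0 to 12 peaks in the peroxide list (median 4) and 0 to 17 in the BHBNa list (median 6). Densities ran from 0 to 7.97 per Mb (median 2.62, interquartile range 1.4 to 3.97) and from 0 to 10.6 per Mb (median 4.5, interquartile range 3.48 to 6.26). Counts varied more than span alone would give: around a constant density, their variance was 1.66 times the Poisson value in the peroxide list and 1.43 times in the other. Longer genes held more peaks, with a Spearman rho between count and span of 0.438 and 0.385 over the 66 genes. The lists did not rank the genes alike: their densities had a rho of 0.0186 over the same genes, which held a mean of 3.98 and 6.65 peaks. Over the 22 autosomes, outside long genes, the densities of the lists had a rho of 0.654. The 2 values are not on like units, since each autosome held at least 26 and 98 such peaks. Counting error lowers a rho over small counts, so the value over genes does not show that the underlying densities differ. These are descriptions, since the genes of a list share a library.

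**Figure D2:**
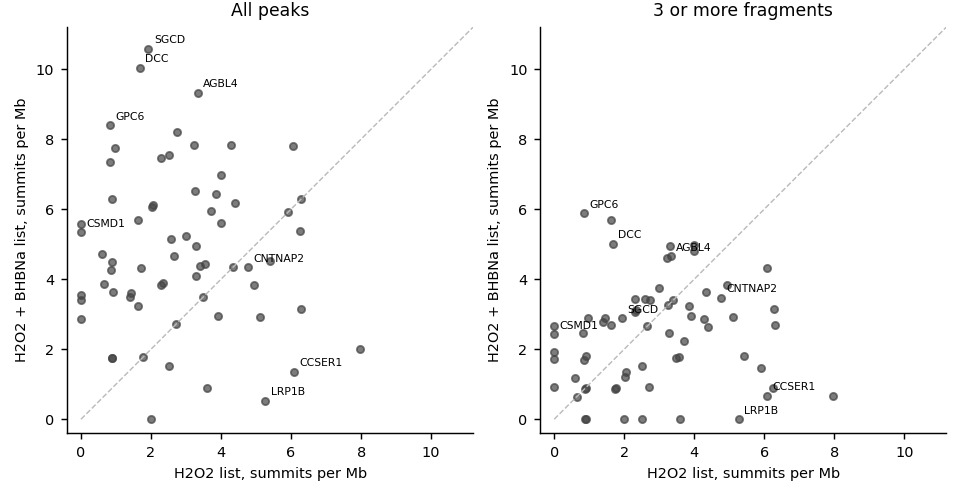
Peak summits per Mb of each of the 66 genes in the peroxide list (horizontal axis) and the BHBNa list (vertical axis), for all peaks (left) and for peaks with 3 or more IP fragments (right); each point is a gene and the dashed line marks equal density. The genes show no common trend, with LRP1B at 5.26 and 0.526 per Mb and SGCD at 1.92 and 10.6.

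The BHBNa list held 1.67 times as many member peaks as the peroxide list (1.43 to 1.95), beside 1.84 times as many autosomal peaks elsewhere (1.78 to 1.9). Its count was higher in 47 genes, equal in 6 and lower in 13. The direction depended on the limit set on the peaks. With 3 or more fragments required in both lists, the counts were 263 and 222, a ratio of 0.844 (0.703 to 1.01), with 28 genes higher, 6 equal and 32 lower. That limit removed peaks from the BHBNa list alone, since none with 2 fragments could enter the peroxide list. Among peaks with a q of 0.05 or less, none of which rested on 2 fragments, there were 19 and 73, with 41 genes higher, 21 equal and 4 lower. Of the members, 7.22% (4.67 to 11.0) and 16.6% (13.4 to 20.4) reached that q, where 7.08% and 15.1% of all autosomal peaks did, shares near the background. Median folds were 3.43 in members and 3.52 in other autosomal peaks of the peroxide list, and 2.84 and 2.72 in the BHBNa list. Median widths were 298 and 328 bp in members, and 297 and 324 bp elsewhere. Local control background differed more: in the BHBNa list 10.7% of members (8.15 to 13.9) stood at the genome-wide background, the lowest possible, against 17.1% of other peaks (16.4 to 17.8). In the peroxide list the shares were 4.94% (2.91 to 8.27) and 7.23% (6.58 to 7.94). The part of this background in the densities was not tested.

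**Figure D3:**
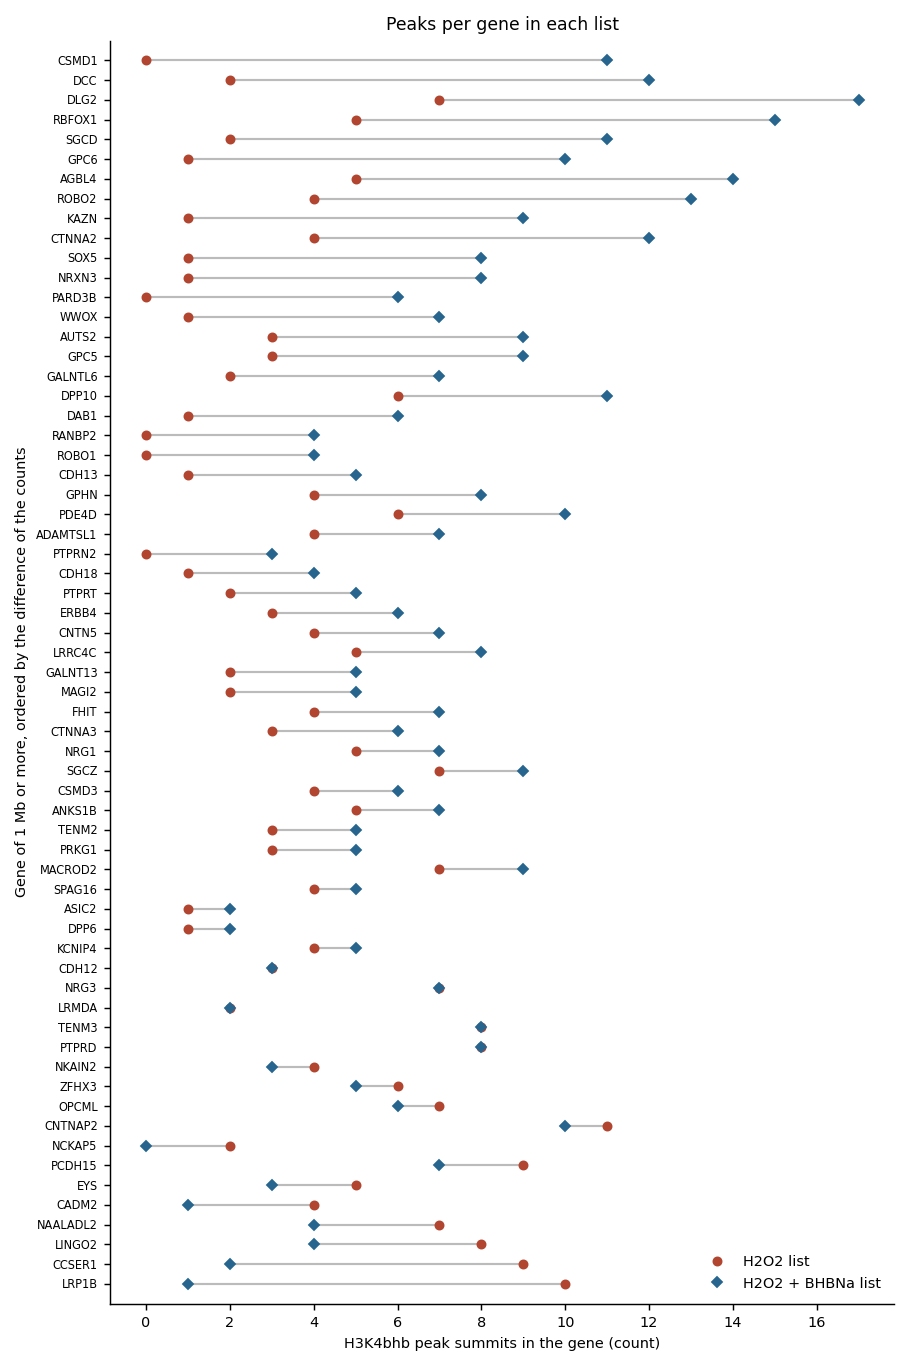
Number of peak summits per gene (horizontal axis; 3 of the 66 genes are not drawn) in the peroxide list (circles) and the BHBNa list (diamonds), with genes ordered by the difference. CSMD1, with 0 and 11, stands at the top and LRP1B, with 10 and 1, at the bottom.

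Peaks of the 2 lists overlapped at only 3 places in long genes, which is 1.14% of members in the peroxide list (0.389 to 3.3), beside 1.17% of all its autosomal peaks, and 0.683% in the BHBNa list (0.233 to 1.99), beside 0.632%. The place with the highest peroxide fold lay in CNTNAP2, which encodes a neurexin-like adhesion protein of axons (chromosome 7, 146116801 to 148420998). There the peroxide peak at 146711809 to 146712256 had a fold of 6.58 (q = 1.12e-05) from 12 fragments. Its BHBNa counterpart at 146711759 to 146712095 had a fold of 4.55 (q = 0.0174) from 5 fragments, with the summits 61 bp apart. The control background there was 3.55 and 3.13 times the genome-wide level; its part in the peak was not tested. CNTNAP2 held 11 and 10 peaks, where its span would hold 6.66 and 11.1 at the mean density of long genes. Its peroxide count was thus among the highest, and its BHBNa count was near the mean.

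MACROD2, an ADP-ribosyl hydrolase gene at a fragile site, held the next shared place. Its peroxide peak on chromosome 20, at 14215342 to 14215658, had a fold of 3.65 (q = 0.289) from 6 fragments. The BHBNa peak at 14215063 to 14215610 had a fold of 4.77 (q = 0.0116), also from 6 fragments, over a control background 4.59 times the genome-wide level (3.35 times in the peroxide list). SGCD, which encodes delta-sarcoglycan of the dystrophin complex, held the last, on chromosome 5. At 156281149 to 156281394 the peroxide peak had a fold of 3.14 (q = 0.494), and at 156280752 to 156281362 the BHBNa peak had a fold of 3.6 (q = 0.0484), each from 3 fragments. These backgrounds were at 1 and 1.09 times the genome-wide level. Summits of the other list lay within 10 kb of 26 peroxide members, 9.89% (6.84 to 14.1), beside 9.95% of other autosomal peroxide peaks.

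Genes with many more peaks in the peroxide list included CCSER1, a coiled-coil gene (chromosome 4, 90127394 to 91605295), with 9 peroxide peaks and 2 BHBNa peaks. Of its peroxide peaks 1 had a q of 0.05 or less, at 90999958 to 91000275, with a fold of 5.01 (q = 0.0199) from 6 fragments. Yet the single highest CCSER1 peak belonged to the BHBNa list, at 90789004 to 90789351, with a fold of 5.14 (q = 0.00123) from 5 fragments. On chromosome 4, outside long genes, densities were 3.02 and 4.24 per Mb, beside 6.09 and 1.35 in CCSER1.

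LRP1B, an endocytic receptor gene of the low-density lipoprotein receptor family (chromosome 2, 140231423 to 142131016), had 10 and 1. Its peroxide peaks had folds from 3.07 to 4.58 and none had a q of 0.05 or less, the lowest being 0.0543. The lone BHBNa peak had a fold of 2.56 from 2 fragments, and that list left a stretch of 1731 kb of the gene without a summit. In the 1 Mb on each side of LRP1B the lists had 10 and 9 peaks. The median control background at LRP1B peaks was 2.51 and 1.69 times the genome-wide level; its part in the counts was not tested. LINGO2, a leucine-rich repeat gene of neurons, had 8 and 4, and CADM2, a synaptic adhesion gene, had 4 and 1. At 3 or more fragments these 4 genes had 9, 10, 8 and 4 peaks in the peroxide list and 1, 0, 4 and 0 in the other, in the order CCSER1, LRP1B, LINGO2, CADM2. They were picked from 66 for the size of this difference, so it is a description.

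The opposite extreme was CSMD1, a large transmembrane gene with CUB and sushi domains (chromosome 8, 2935361 to 4994914), with 0 and 11. At the mean density of long genes its span of 2060 kb would hold 5.95 peroxide peaks and 9.94 BHBNa peaks. Its BHBNa count was thus near the mean, and the contrast lay in the peroxide list. Its 11 BHBNa peaks had folds from 2.56 to 4.46. Of these 5 had 3 or more fragments, and 1, at 4356227 to 4356485, had a q of 0.00453. The flanks of CSMD1 held 2 and 8 peaks. DCC, the netrin receptor gene (chromosome 18, 52340197 to 53535899), had 2 and 12, or 2 and 6 at 3 or more fragments. In the BHBNa list 4 of the 12 had a q of 0.05 or less, more than in any other long gene, and the highest, at 52947974 to 52948395, had a fold of 4.7 (q = 0.00958).

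DLG2, a membrane-associated guanylate kinase gene of the postsynaptic density, had 7 and 17, the most peaks of the BHBNa list. RBFOX1, a neuronal splicing regulator and the longest gene here at 2474 kb, had 5 and 15. At 3 or more fragments DLG2 had 7 and 10, and RBFOX1 had 5 and 3, so the order of the lists turned in RBFOX1. Measured from its 5' end, RBFOX1 had no summit of the BHBNa list in the first 795 kb and none of the peroxide list in the first 1030 kb. AGBL4, a cytosolic carboxypeptidase gene that trims glutamate chains from tubulin, had 5 and 14, and held the highest fold among members of the BHBNa list, 6.7, at 49970715 to 49971130 on chromosome 1 (q of 6.41e-06, 7 fragments). SGCD, at 10.6, and DCC, at 10.0, had the highest densities per Mb in that list. SGCD had 3 or more fragments at 3 of its 11 BHBNa peaks and DCC at 6 of 12. CSMD1, DCC, DLG2, RBFOX1 and AGBL4 were likewise picked for the excess of their BHBNa count over their peroxide count.

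**Figure D4:**
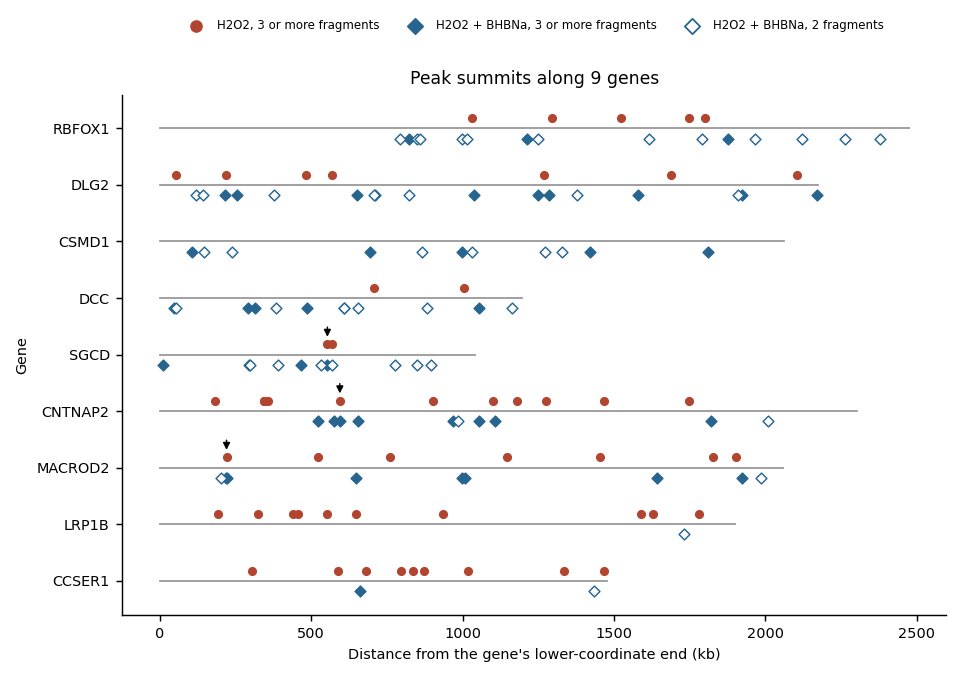
Summits along 9 genes, as distance in kb from the gene's lower-coordinate end (horizontal axis); circles above each line are peroxide peaks, diamonds below are BHBNa peaks, open diamonds rest on 2 IP fragments, and arrows mark the 3 places where the lists overlap. CSMD1 carries diamonds alone, while CCSER1 and LRP1B carry 9 and 10 circles and 2 and 1 diamonds.

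Among members of the peroxide list SGCZ, the zeta-sarcoglycan gene, held the highest fold, 7.65, with a q of 4.99e-07 from 10 fragments at 14325490 to 14325777 on chromosome 8, and no peak of the other list overlapped it. The CNTNAP2 peak shared with the other list came next, at 6.58. PCDH15, a protocadherin gene of hair-cell tip links, had a fold of 6.49 (q of 7.24e-06) at 55542434 to 55543207 on chromosome 10. EYS, a gene of the photoreceptor matrix, had 6.01 (q of 8.27e-06) at 65064146 to 65064494 on chromosome 6, over a control background 6.06 times the genome-wide level. LINGO2 reached 5.73 and ERBB4, a neuregulin receptor, 5.71, with q of 0.00184 and 0.00194. After AGBL4, the next highest fold of the BHBNa list was at PTPRN2, a phosphatase-like gene of secretory granules (6.35, q of 3.84e-06). CTNNA3, an alpha-catenin gene, reached 5.37 (q of 0.00156), and CDH13, a cadherin anchored by a lipid tail, 5.35 (q of 0.000266). The PTPRN2 peak stood on a control background equal to the genome-wide level.

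The genes were grouped by role, and for each group the peroxide value comes first. Some genes stand in more than 1 group. A limit of 3 or more fragments removes peaks from the BHBNa list alone. As in the whole set, the order of the lists turned at 3 or more fragments in most of these groups, to 17 and 15 peaks in the neurexin family, 25 and 19 in the immunoglobulin-domain group, 25 and 17 in the phosphatase and kinase group, 16 and 9 in the teneurin group, 16 and 11 among channel partners and 20 and 15 among signalling genes. It did not turn among cadherins and catenins, with 21 and 22, or synaptic scaffolds, with 14 and 18, and the peptidase-related group had 16 and 16. The mean over all long genes, for reference, was 2.89 and 4.83 per Mb. The 4 neurexin-family and contactin genes had 17 and 30 peaks, or 2.63 per Mb (1.53 to 4.22) and 4.65 (3.14 to 6.64). Within them NRXN3, a presynaptic organiser, had 1 and 8 (1 and 2 at 3 or more fragments), while the contactin CNTN5 had 4 and 7. The 6 cadherins and catenins had 21 and 37 peaks, 2.46 and 4.34 per Mb. CTNNA2, the neuronal alpha-catenin, had 4 and 12, PCDH15 had 9 and 7, and CDH12 had 3 and 3. The 6 immunoglobulin-domain and related adhesion genes had 25 and 40, 3.28 and 5.25 per Mb. Their Slit receptors differed in count, ROBO2 with 4 and 13 and ROBO1 with 0 and 4, and OPCML, an IgLON gene, had 7 and 6.

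Among receptors, ligands and scaffolds, the 6 receptor phosphatases, kinases and their ligands had 25 and 36 peaks, 3.16 and 4.55 per Mb. The neuregulins NRG3 and NRG1, ligands of ERBB receptors, had 7 and 7, and 5 and 7, and their receptor ERBB4 had 3 and 6. PTPRD, a synaptic receptor phosphatase of 2299 kb, had 8 and 8. The 3 teneurin and leucine-rich repeat genes had 16 and 21, 4.01 and 5.27 per Mb, of which TENM3 had 8 and 8. The 4 synaptic scaffold genes had 14 and 35, 2.35 and 5.88 per Mb, with MAGI2, also known from podocytes, at 2 and 5. The scaffold gene ANKS1B, which was not placed in this group, had 5 and 7. Ion channel partners, 5 genes, had 16 and 23, 2.7 and 3.88 per Mb. DPP10 and DPP6, which modulate A-type potassium channels, had 6 and 11, and 1 and 2, and KCNIP4, another such partner, had 4 and 5. CSMD1, CSMD3, LRP1B and EYS together had 19 and 21, 2.65 and 2.93 per Mb (1.82 to 4.48), the lowest BHBNa density of any group with more than 1 gene, and 19 and 14 at 3 or more fragments.

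In the cell-surface matrix group, the 4 glypican and glycosyltransferase genes had 8 and 31 peaks, 1.52 (0.655 to 2.99) and 5.88 per Mb (3.99 to 8.34). At 3 or more fragments they had 8 and 20, with the higher count in the BHBNa list in each gene except GPC5, which had 3 and 2. GPC6 and GPC5, heparan sulfate proteoglycans of the cell surface, had 1 and 10, and 3 and 9. The sarcoglycans SGCD and SGCZ had 9 and 20, 4.1 (1.88 to 7.79) and 9.12 per Mb (5.57 to 14.1), or 9 and 8 at 3 or more fragments. RBFOX1, AUTS2 and SOX5, regulators of splicing and transcription, had 9 and 32, 1.91 and 6.81 per Mb, and at 3 or more fragments 9 and 6, with all 9 BHBNa peaks of AUTS2 resting on 2. The transcription factor gene ZFHX3, which was not placed in this group, went the other way with 6 and 5, or 6 and 2 at 3 or more fragments. The 6 signalling genes had 20 and 38, among them the cAMP phosphodiesterase gene PDE4D with 6 and 10 and the cGMP-dependent kinase gene PRKG1 with 3 and 5. KAZN, a desmosome-associated gene, had 1 and 9, and PARD3B, a polarity gene, 0 and 6. At 3 or more fragments KAZN had 1 and 3, and PARD3B 0 and 1. The group of peptidase-related genes, AGBL4, NAALADL2 and ADAMTSL1, had 16 and 25.

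Genes known as common fragile sites, 10 of the 66, had 47 and 60 peaks, 3.11 per Mb (2.28 to 4.13) and 3.96 (3.03 to 5.1). At 3 or more fragments they had 47 and 25. FHIT, a diadenosine hydrolase gene, had 4 and 7, WWOX, an oxidoreductase gene, 1 and 7, and DAB1, an adaptor of reelin signalling, 1 and 6. At 3 or more fragments FHIT had 4 and 4, and WWOX and DAB1 had 1 and 1 each. MACROD2, LRP1B, CTNNA3, AUTS2 and PARD3B were also in this group. A list of 20 genes known from kidney cells, most of them of the tubule but with podocyte genes such as MAGI2 among them, had 4 that were long enough: GPC5, GPC6, MAGI2 and ERBB4, which had 9 and 30 peaks, 1.71 (0.782 to 3.25) and 5.7 per Mb (3.85 to 8.14), or 9 and 17 at 3 or more fragments. The remaining 6 genes fell in no group. ANKS1B, a synaptic scaffold gene, had 5 and 7, SPAG16, a cilium gene, 4 and 5, LRMDA 2 and 2, and the transcription factor gene ZFHX3 6 and 5. RANBP2, a nuclear pore gene whose annotated span takes in neighbours, had 0 and 4, of which 2 lay inside EDAR or SH3RF3, and NCKAP5 had 2 and 0.

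Within genes, summits were spread over the whole span. Orientation was known for 54 genes, holding 208 and 374 members. In the peroxide list 57.2% of summits (50.4 to 63.7) lay before the midpoint, nearer the 5' end, and in the BHBNa list 48.7% did (43.6 to 53.7), so the intervals overlapped. With the span cut into 10 equal parts, the first held 11.1% of peroxide summits (7.48 to 16.0) and 6.95% of BHBNa summits (4.79 to 9.99). The last held 5.77% (3.33 to 9.81) and 10.4% (7.72 to 13.9). No member lay within 1 kb of an end of its gene, and 3 and 5 lay within 10 kb. Those stretches are a very small part of the spans, so such low counts do not show that gene ends were avoided. The closest to an annotated start were a DLG2 peak of the BHBNa list, 3.13 kb inside the gene, with a fold of 4.23 (q = 0.0216), and an AUTS2 peak of the peroxide list at 3.37 kb, with a fold of 3.29 (q = 0.494).

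**Figure D5:**
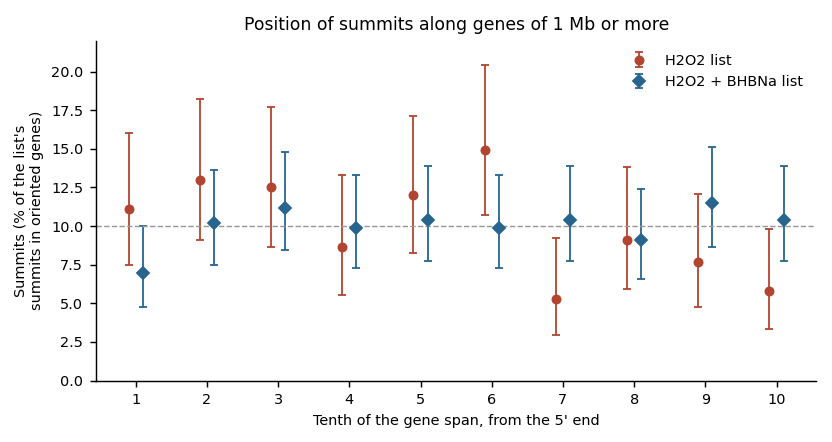
Share of each list's summits (vertical axis, percent) in 10 equal parts of the gene span counted from the 5' end (horizontal axis), over 54 oriented genes with 208 peroxide summits (circles) and 374 BHBNa summits (diamonds); bars are 95% Wilson intervals and the dashed line is an even spread. The peroxide shares run from 5.29% to 14.9% and the BHBNa shares from 6.95% to 11.5%.

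Members seldom clustered. A second summit of the same list lay within 10 kb of 6.84% of peroxide members (4.37 to 10.6) and 8.2% of BHBNa members (5.98 to 11.1), beside 6.84% and 9.85% of other autosomal peaks. Other annotated genes within the long genes held 15 peroxide summits (5.7%), all in long noncoding RNA genes, and 39 BHBNa summits (8.88%), of which 9 were in protein-coding genes. GPHN, which encodes the inhibitory-synapse scaffold gephyrin, accounted for 5 of those 9, inside GARIN2, PALS1, EIF2S1, PLEKHH1 and RDH11. The folds of those 5 ran from 2.55 to 3.48, and none had a q of 0.05 or less.

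The genes nearest the limit of 1 Mb had between 0 and 7 peaks in a list. Just inside were NCKAP5 (1003 kb, 2 and 0 peaks), ADAMTSL1 (1004 kb, 4 and 7) and NKAIN2 (1022 kb, 4 and 3). Just outside were ASTN2 (992 kb, 1 and 3), CAMTA1 (984 kb, 1 and 1) and DLGAP2 (971 kb, 0 and 0).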

How the data were processed

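H3K4bhb was profiled by chromatin immunoprecipitation and sequencing in HK-2 cells under 2 treatments, each with 1 IP and 1 control library. Per the submitters' processing notes, tools included fastp 0.20.1, Bowtie2 2.4.2 and MACS2 2.2.7.1 on GRCh38; the sources used here give no settings. Both files of a treatment held the same 6251 (H2O2 alone) or 11510 (BHBNa, then H2O2) peaks, with starts 1 bp apart. Each peak carries, as deposited, a score (10 times the −log10 p, cut to a whole number), a ratio (fold enrichment), the −log10 of p and q, and a summit offset in bp. No deposited −log10 p was under 3.

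Fragments at each summit and the control background were computed by taking the fold as (fragments + 1) over (background + 1) and the p as a Poisson upper tail above that count. For 100% of peaks a whole number met both values to within 0.001 (in proportion, where values were very high). Peaks on chromosomes 1 to 22 were placed in RefSeq genes of GRCh38 by their summit. Strand came from the RefSeq promoter table; exons were not used here. Densities have exact Poisson, shares Wilson and ratios exact binomial 95% intervals. No test between treatments was possible with 1 library each. Total reads per library are not known here. Fragments at a called summit depend on the p limit and the background, so they do not measure depth. The part of depth in the counts of the 2 lists was not tested. The work used Python 3.11.15, scipy 1.17.1, numpy 2.4.6, pandas 2.3.3 and, for plots, matplotlib 3.10.9. Steps were tested on simulated data.

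The members and gene groups were chosen with earlier results of these data known. Named genes are those with overlapping peaks of both lists, the 8 with the most peaks and the 6 with the most per Mb in each list, the 6 longest, those with 0 peaks in both lists (no gene met this), those of the 6 highest folds in each list, the 5 with the largest excess in each direction, and 3 on either side of the span limit. Some genes that the rule names are not reported here. Other long genes are named as examples of their group. Alternatives covered limits on q and fragments, the span limit, the assignment to genes, the sequence compared with and the rule of overlap.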

Additional observations from a re-analysis of the deposited data

Results flagged for a closer look

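Chromosome X lies outside the rule used for the members, and its 3 protein-coding genes of 1 Mb or more held peaks above the 3 counts that a count of 0 allows. They held 20 peaks in the peroxide list, 4.17 per Mb (2.55 to 6.45), and 37 in the BHBNa list, 7.72 per Mb (5.44 to 10.6). The rest of the chromosome had 2.2 and 4.41 per Mb. DMD, the dystrophin gene (2220 kb), had 11 and 20, IL1RAPL1, a synaptic adhesion gene (1369 kb), had 6 and 9, and IL1RAPL2 (1202 kb) had 3 and 8.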

How the results depend on the processing

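No paired analysis was possible because each treatment had 1 IP library, and for the same reason no replicate could be left out. Comparisons with the flanks were chosen after seeing the data. Of 54 recomputed values, 30 stayed within 1.5 times the count or within the interval reported. Values are given for the peroxide list first. A q of 0.05 or less kept 19 and 73 members, a count ratio of 3.84 with 1 shared. The density ratios were then 1.47 (0.874 to 2.32) and 1.44 (1.12 to 1.82), so the peroxide interval included equal density. A −log10 q of 5 or more kept 3 and 2 members, a count ratio of 0.667 (0.0557 to 5.82) with 0 shared. The density ratios were then 7.06 (1.29 to 25.7) and 1.18 (0.139 to 4.47). At 3 or more fragments the BHBNa list had 222 members and the count ratio was 0.844. At 4 or more it had 78, the count ratio was 0.371 and its density ratio 1.48. Both limits remove the 2-fragment peaks, which the BHBNa list alone holds and, given the p limit and the backgrounds, alone could hold. With spans of 1.5 Mb or more there were 98 and 148 members, since fewer genes pass. Against genes under 1 Mb the peroxide density ratio was 1.63. Against the 1 Mb flanks it was 1.15, and against their intergenic part 0.995, with 1.09 for BHBNa. With overlap of 50% of both peaks 1 place was shared, and with summits within 1 kb, 6. Counts of 2 or 3 fragments at a summit limit what single peaks can show.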
